A study of Mus musculus with 16 samples.

Results

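This account covers 10 genes at the centre of the hedgehog signalling pathway in mouse liver: the ligands Shh, Ihh and Dhh, the ligand-binding proteins Ptch1 and Hhip, the signal transducer Smo, the Gli inhibitor Sufu, and the transcription factors Gli1, Gli2 and Gli3. They were chosen by name among the 19938 genes that had a probe set with a single gene symbol, and all 10 were found, each with 1 probe set. The study crossed genotype with diet, with 4 mice in each of 4 groups and 1 Affymetrix MoGene 1.0 ST array, a whole-transcript microarray, per mouse, 16 arrays in all. Het_HFD mice carried 1 null allele of Gli2 and ate a high-fat diet, Het_control mice had the same genotype on a control diet, WT_HFD mice were wild type on the high-fat diet, and WT_control mice were wild type on the control diet. Each diet lasted 12 weeks. The livers came from adult mice. The sources used here do not give sex, exact age, strain or the deleted part of the Gli2 allele. The genotype field of the wild-type mice names Gli1, while the series text speaks of Gli2. They are treated here as wild type.

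Hedgehog ligands are secreted proteins that bind the receptor Ptch1. Without ligand, Ptch1 keeps the membrane protein Smo inactive, and Gli2 and Gli3 are held back by Sufu and partly cut into repressors. With ligand, Smo enters the primary cilium, full-length Gli proteins reach the nucleus, and transcription of Gli1, Ptch1 and Hhip rises in responding cells. In adult liver the pathway is known for low activity in healthy hepatocytes and for activity in stellate and bile duct cells after injury. The design asks how loss of a Gli2 copy and a fat-rich diet act on the liver, alone and together.

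Levels are log2 values made by the authors with RMA. It sets the probe values of all arrays to the same distribution before combining them into probe sets. Each level is therefore relative to the array's other genes. Probe sets of different genes have different brightness, and levels are therefore compared within a gene. Hepatocyte markers averaged 13.55 to 13.72 on the 16 arrays, far above the median level of genes. One array, replicate 2 of the Het_control group (called Het_control 2 below), stood apart. Its correlation with the others across genes was 0.961 to 0.979, against 0.990 to 0.997 among the other 15. Genes below the median level of 8.30 were shifted by a median of 0.34 log2 units on that array relative to the mean of the other 15, and brighter genes by -0.19. Olfactory receptor genes (1027 genes, used here to show the reading of genes not transcribed in liver) had a median of 6.46 on it, against 5.73 to 6.01 on the others. Their means over all arrays had a 95th percentile of 7.72, and the means of Dhh (7.32), Gli2 (7.58) and Gli3 (7.27) lay under it. Whether those 3 probe sets report transcripts or background was not tested.

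**Figure D1:**
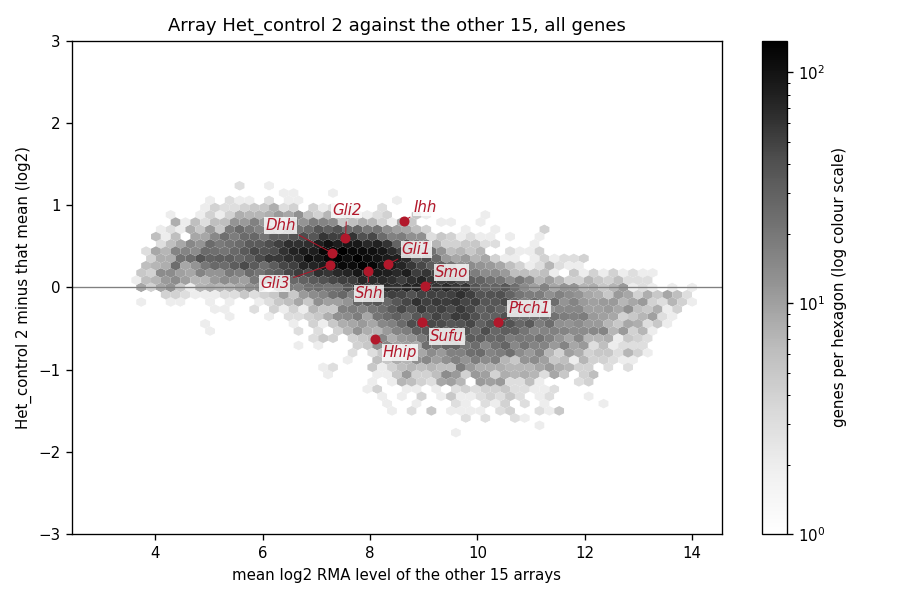
Difference of array Het_control 2 from the mean of the other 15 arrays (vertical axis, log2) against that mean (horizontal axis, log2 RMA level). Grey hexagons count all genes on a log colour scale and red points are the 10 hedgehog genes. Ihh (0.81) and Gli2 (0.60) lay highest and Hhip (-0.62) lowest among the 10.

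The plot of array Het_control 2 shows where the hedgehog genes lie on its tilt. Dhh, Gli2 and Gli3, which are dim, read 0.27 to 0.60 higher on that array than on the other 15, and Ptch1 and Sufu, which are brighter, read 0.42 lower each. Shh read 0.20 higher. Ihh (0.81 higher), Gli1 (0.29 higher) and Hhip (0.62 lower) went against the median shift on their side of the median level. Smo differed by 0.02. Differences of the members that use the Het_control group are therefore also drawn without that array in the plot of differences, and their values without it are given where they moved. The limma test used below shares its estimate of spread over all 4 groups. Leaving out that array therefore also changes the SE and adjusted p of contrasts that hold no Het_control livers.

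Across all members, no difference passed the test in any of the 8 comparisons. These were the diet contrast of each genotype, the genotype contrast on each diet, diet over both genotypes, genotype over both diets, the interaction (the diet difference in heterozygotes minus that in wild type), and any difference among the 4 groups. The threshold was an adjusted p of 0.05 from limma, with Benjamini-Hochberg adjustment over the 19938 genes. Over all genes, that rule called 2.22% for diet in heterozygotes, 0% for diet in wild type, 0.00502% for genotype on the high-fat diet, 0% for genotype on the control diet, 1.86% for diet over both genotypes, 0.00502% for genotype over both diets, 0% for the interaction and 0.326% for any difference. The single gene called for genotype was Ctse, named here after its values were seen. At these shares, 0 calls among 10 genes is no result about the pathway. At an unadjusted p under 0.05, 2 members passed for diet in heterozygotes (background 31.6%), 1 for diet in wild type (6.43%), 0 for genotype on the high-fat diet (3.57%) and 1 for genotype on the control diet (15.7%). The same threshold was passed by 3 members for diet over both genotypes (26.9%), 2 for genotype over both diets (7.76%), 1 for the interaction (8.13%) and 3 for any difference (21.3%). Exact permutation tests of 4 arrays against 4, which cannot go below p = 0.0286, called 0 of 40 differences after adjustment over the 40, and 3 of them had that smallest p. A call after this adjustment would need most of the 40 to hold the smallest p. The 0 calls and the adjusted exact values given below therefore say little about single members.

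**Figure D2:**
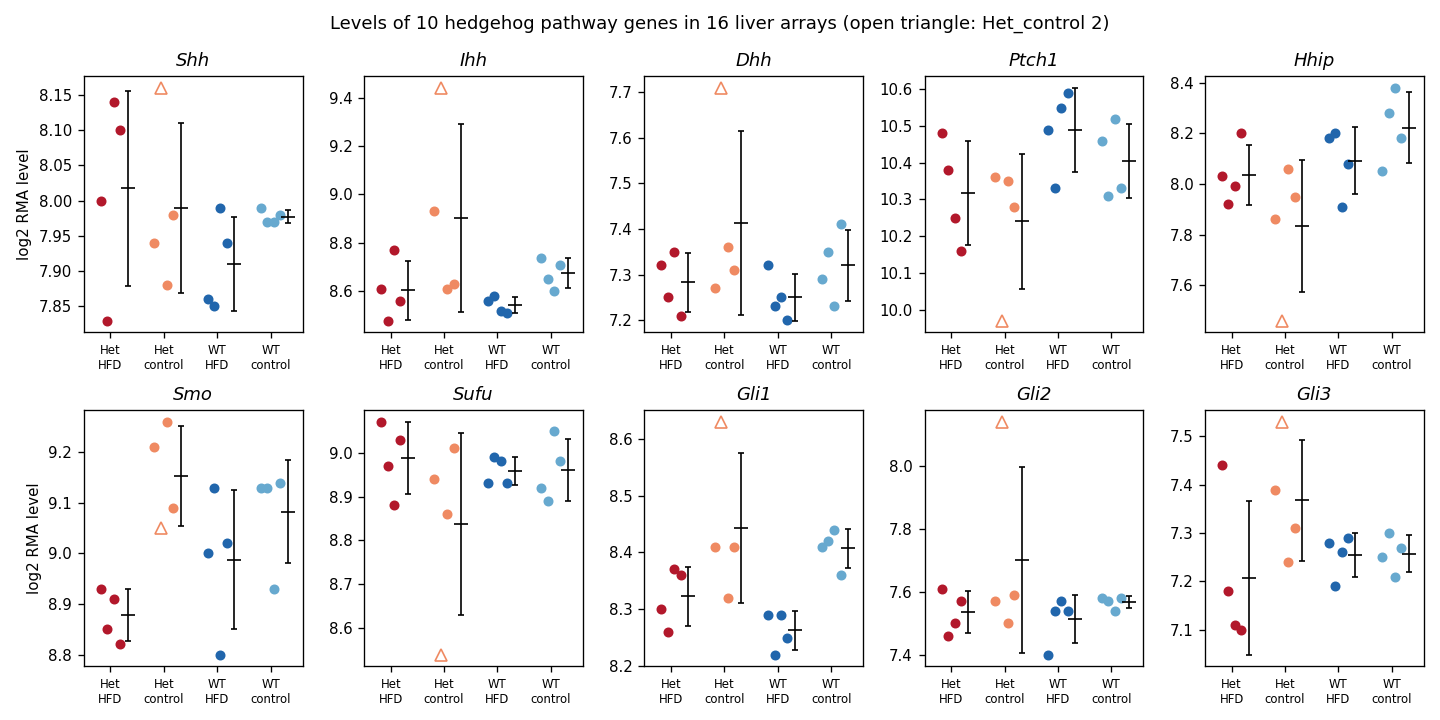
Level of each hedgehog gene (vertical axes, log2 RMA, a separate range for each gene) in Het_HFD, Het_control, WT_HFD and WT_control livers. Points are single arrays, the open triangle is Het_control 2, and bars are the mean and SD of 4 arrays. The triangle is the highest or lowest of the 16 values for 9 of the 10 genes, the exception being Smo.

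Gli2 encodes the main transcriptional activator of the pathway and is the gene with the null allele. Gli2 levels were 7.61, 7.46, 7.5 and 7.57 in Het_HFD livers and 7.57, 8.14, 7.5 and 7.59 in Het_control livers, against 7.40, 7.54, 7.57 and 7.54 in WT_HFD livers and 7.58, 7.57, 7.54 and 7.58 in WT_control livers. The genotypes overlapped on both diets, and the value of 8.14 from Het_control 2 was the only one above 7.61. Over both diets, heterozygotes minus wild type was 0.08 (SE 0.07, 95% interval -0.08 to 0.23, adjusted p = 0.632 by limma). On the control diet the difference was 0.13 (SE 0.10) with all 4 heterozygotes and -0.01 without Het_control 2. The diet difference in heterozygotes was -0.17 (SE 0.10) with that array and -0.02 without it. No lower Gli2 level in heterozygotes was detected. The deleted part is not given, and the Gli2 mean of 7.58 lay under 7.72, the 95th percentile of olfactory receptor genes. This probe set therefore does not check the genotype labels.

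The 3 ligands showed no called difference. Shh encodes sonic hedgehog. Shh ranged over 7.83 to 8.14 in Het_HFD livers, 7.88 to 8.16 in Het_control livers, 7.85 to 7.99 in WT_HFD livers and 7.97 to 7.99 in WT_control livers. Its largest contrast of 2 groups was 0.11 (SE 0.07), Het_HFD minus WT_HFD, and the groups overlapped in every contrast. Dhh encodes desert hedgehog, known best from testis and nerve sheath. Its group means were 7.28 ± 0.062 in Het_HFD, 7.41 ± 0.202 in Het_control, 7.25 ± 0.0533 in WT_HFD and 7.32 ± 0.0733 in WT_control livers (SD, n = 4 each), and without Het_control 2 the Het_control mean was 7.31 ± 0.0474 (SD, n = 3).

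Ihh, Indian hedgehog, varied most among the ligands. It read 8.61, 8.48, 8.77 and 8.56 in Het_HFD livers, against 8.93, 9.44, 8.61 and 8.63 in Het_control livers. It read 8.56, 8.58, 8.52 and 8.51 in WT_HFD livers, against 8.74, 8.65, 8.60 and 8.71 in WT_control livers. The wild-type diet groups did not overlap, with all 4 WT_HFD livers lower, while the heterozygous groups did overlap. The diet difference was -0.30 in heterozygotes (SE 0.13, adjusted p = 0.137 by limma) and -0.13 in wild type (SE 0.13, adjusted p = 0.936). Without Het_control 2 the difference in heterozygotes became -0.12 (SE 0.08). That in wild type stayed at -0.13, with an SE of 0.07 and an adjusted p = 0.424 by limma. Non-overlapping groups of 4 were found for 8.50% of all genes in the wild-type diet contrast and for 13.7% in the heterozygous one. Among the 10 members they were found for Ihh and Gli1 in wild type and for Smo in heterozygotes.

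Ptch1, the ligand receptor and itself a Gli target, was the brightest of the 10 probe sets. Its levels were 10.48, 10.38, 10.25 and 10.16 in Het_HFD livers, against 10.49, 10.33, 10.55 and 10.59 in WT_HFD livers. They were 10.36, 9.97, 10.35 and 10.28 in Het_control livers, against 10.46, 10.31, 10.52 and 10.33 in WT_control livers. The means were lower in heterozygotes on both diets, and the groups overlapped on both. Over both diets the difference was -0.17 (SE 0.07, 95% interval -0.31 to -0.03), which did not pass the test (adjusted p = 0.573 by limma), and it was -0.12 (SE 0.05) without Het_control 2. For genotype, groups of 4 did not overlap for 3.75% of all genes on the high-fat diet and 6.12% on the control diet, and for 0 of the 10 members on either.

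Hhip encodes a membrane protein that binds hedgehog ligands and keeps them from Ptch1, and it is also a known target of the pathway. It read 7.86, 7.46, 8.06 and 7.95 in Het_control livers, against 8.05, 8.28, 8.38 and 8.18 in WT_control livers. The groups touched, since 1 heterozygous value (8.06) passed the lowest wild-type value. The difference was -0.39 (SE 0.11, 95% interval -0.63 to -0.16, a fold of 0.762, adjusted p = 0.279 by limma, exact permutation p = 0.0571). Without Het_control 2 it was -0.27 (SE 0.09, adjusted p = 0.463). On the high-fat diet Hhip read 8.03, 7.92, 7.99 and 8.20 in Het_HFD livers, against 8.18, 8.20, 7.91 and 8.08 in WT_HFD livers, a difference of -0.05 (SE 0.11). The interaction was 0.34 (SE 0.16, adjusted p = 0.610) and 0.22 (SE 0.12) without Het_control 2, so a genotype difference that changes with diet was not shown. Beside this, 8 of 8 sinusoidal endothelial markers had lower values in Het_control than in WT_control livers (median -0.30, and -0.20 without Het_control 2, against 0.04 and 0.01 for all genes), with 0 called. Their mean level was 10.14 to 10.49 in the Het_control livers other than Het_control 2, which lay lower, and 10.47 to 10.58 in WT_control livers. Of 7 lymphocyte markers, 7 were lower in value (median -0.21, and -0.17 without Het_control 2, 0 called), with mean levels of 7.49 to 7.65 in Het_control livers and 7.69 to 7.77 in WT_control livers that did not overlap. Of 8 Kupffer cell and macrophage markers, 6 were lower in value (median -0.32), and 7 without Het_control 2 (median -0.25), with 0 called. Of 11 stellate cell markers, 7 were lower in value (median -0.11), and 9 without Het_control 2 (median -0.09), with 0 called. Their mean level was 9.73 to 9.87 in the Het_control livers other than Het_control 2, which lay lower, and 9.87 to 9.98 in WT_control livers. Of 6 bile duct cell markers, 5 were higher in value (median 0.08), and 4 without Het_control 2 (median 0.03). Of 9 gallbladder, gut and pancreas markers, 9 were higher in value (median 0.13), and 7 without Het_control 2 (median 0.03), with 0 called. The part of these cell types in the Hhip difference was not tested. In whole liver, fewer cells of a type and less RNA per cell cannot be told apart.

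**Figure D3:**
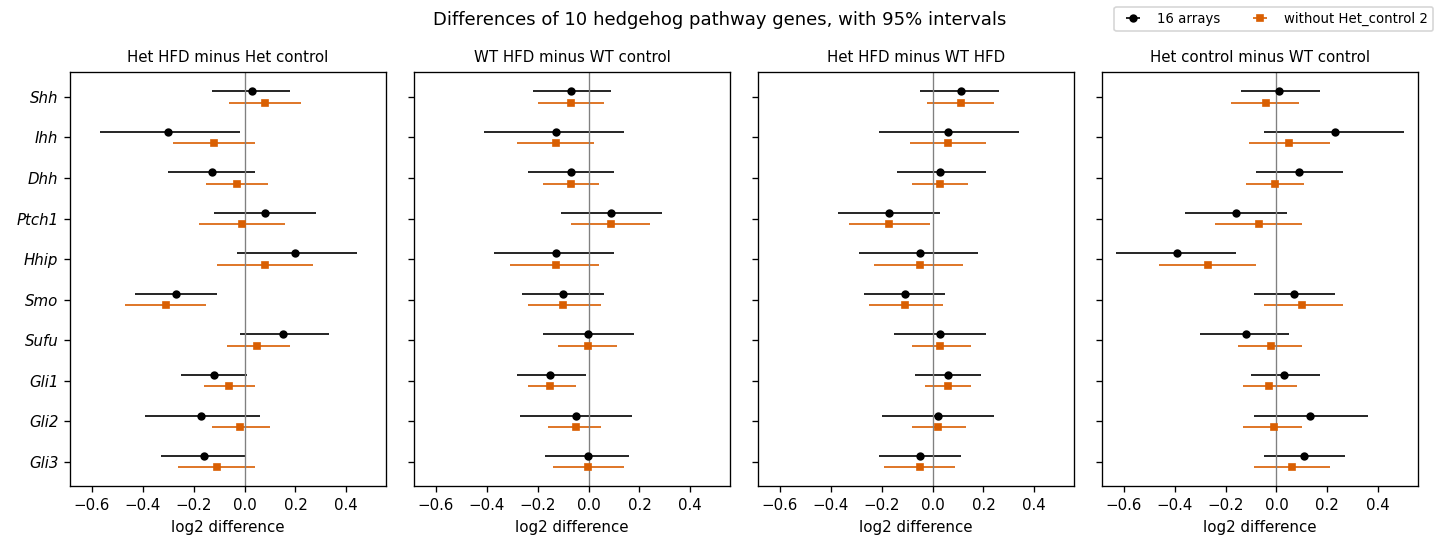
Differences of the 10 hedgehog genes (horizontal axes, log2) in the 4 contrasts of 2 groups, with 95% intervals from limma. Black circles use 16 arrays and orange squares leave out Het_control 2. Among the black circles, Smo in Het_HFD minus Het_control (-0.27) and Hhip in Het_control minus WT_control (-0.39) lay farthest from 0 relative to their intervals. Among the orange squares these were Smo in Het_HFD minus Het_control (-0.31) and Gli1 in WT_HFD minus WT_control (-0.15).

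Smo is the membrane protein that passes the signal on when Ptch1 is bound, and it was the member nearest to the threshold. Smo levels were 8.93, 8.85, 8.91 and 8.82 in Het_HFD livers, against 9.21, 9.05, 9.26 and 9.09 in Het_control livers. All 4 Het_HFD values lay below all 4 Het_control values. The difference was -0.27 (SE 0.08, 95% interval -0.43 to -0.11), a fold of 0.827, with an adjusted p = 0.0599 by limma and an exact permutation p = 0.0286 that became 0.381 after adjustment over the 40 tests. Without Het_control 2 the difference was -0.31 (SE 0.07, adjusted p = 0.0609), and over the 16 fits that each left out 1 array it ranged from -0.31 to -0.24 with an adjusted p of 0.0305 to 0.153. It passed the threshold in 1 of the 16, the fit without Het_control 4, which called 3447 of all 19938 genes in this contrast. Smo read 9.0, 9.13, 8.80 and 9.02 in WT_HFD livers, against 9.13, 9.13, 8.93 and 9.14 in WT_control livers. These groups overlapped and the difference was -0.10 (SE 0.08, adjusted p = 0.917, and 0.546 in the fit without Het_control 2). The interaction of -0.18 (SE 0.11, adjusted p = 0.644) did not pass, so a larger diet difference in heterozygotes was not shown. Over both genotypes Smo differed by -0.19 (SE 0.05, adjusted p = 0.0781). That contrast passed without Het_control 2 (-0.20, adjusted p = 0.0371) and without Het_control 4 (adjusted p = 0.0436), and in no other fit that left out 1 array. Of all genes, 3.57% passed there without Het_control 2, and 1755 of 19938 genes passed there without Het_control 4.

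The promoters of Smo and Ptch1 are shown because Smo was the member nearest to the threshold and Ptch1 is the member best known as a Gli target. Each is the 250 bases before the start in RefSeq's promoter table for GRCm38.p6, 5′ to 3′ on the gene's strand, at chr6:29735247-29735496 for Smo (plus strand) and chr13:63565736-63565985 for Ptch1 (minus strand). The Gli-binding motif GACCACCCA and its core CCACCCA, which it contains, were searched on both strands in windows of 300 bases, 250 before and 50 after the start. A match would be in capitals.
Smo: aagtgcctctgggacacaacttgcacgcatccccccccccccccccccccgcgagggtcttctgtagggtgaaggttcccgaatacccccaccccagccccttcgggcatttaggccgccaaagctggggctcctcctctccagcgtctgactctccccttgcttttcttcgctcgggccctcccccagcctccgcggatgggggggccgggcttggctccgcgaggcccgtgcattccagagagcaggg
Ptch1: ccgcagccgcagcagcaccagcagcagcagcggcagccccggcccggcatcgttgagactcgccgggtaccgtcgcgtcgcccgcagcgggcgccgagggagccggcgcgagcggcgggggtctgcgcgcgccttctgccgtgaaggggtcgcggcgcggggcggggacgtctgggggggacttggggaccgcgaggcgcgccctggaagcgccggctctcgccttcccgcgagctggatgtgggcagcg
Neither sequence holds a match. RefSeq windows were given for 8 of the 10 members (Shh and Gli1 were not searched), and 0 of the 8 held the motif or its core. Among 32851 windows of all genes, 0.253% held the motif and 9.30% the core. The search says only that these letters are not in these windows.

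Sufu encodes the cytoplasmic protein that binds and restrains Gli factors. Its group means were 8.99 ± 0.0831 in Het_HFD, 8.84 ± 0.208 in Het_control, 8.96 ± 0.0326 in WT_HFD and 8.96 ± 0.0712 in WT_control livers (SD, n = 4 each). The lowest of the 16 values, 8.54, came from Het_control 2, and without that array the Het_control mean was 8.94 ± 0.0773 (SD, n = 3). The diet difference in heterozygotes of 0.15 (SE 0.08) was then 0.05.

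Gli1, the factor whose transcription is the usual readout of hedgehog activity, had narrow groups. It read 8.29, 8.22, 8.29 and 8.25 in WT_HFD livers, against 8.41, 8.42, 8.44 and 8.36 in WT_control livers. These groups did not overlap, and the difference was -0.15 (SE 0.06, 95% interval -0.28 to -0.01, adjusted p = 0.738 by limma, exact permutation p = 0.0286, 0.381 after adjustment). In the fit without Het_control 2, this wild-type difference had an SE of 0.04 and an adjusted p = 0.181 by limma. It read 8.30, 8.26, 8.37 and 8.36 in Het_HFD livers, against 8.41, 8.63, 8.32 and 8.41 in Het_control livers, which overlapped and differed by -0.12 (SE 0.06), or -0.06 without Het_control 2. Over both genotypes the diet difference was -0.13 (SE 0.04, adjusted p = 0.107), and -0.10 (SE 0.03, adjusted p = 0.0844) without Het_control 2. Between genotypes Gli1 differed by 0.05 (SE 0.04, adjusted p = 0.633). Beside the wild-type diet difference, 7 of 7 lymphocyte markers had lower values in WT_HFD than in WT_control livers (median -0.27, 0 called), with mean levels of 7.37 to 7.51 in WT_HFD livers and 7.69 to 7.77 in WT_control livers. All 8 sinusoidal endothelial markers were also lower in value there (median -0.13, 0 called). Of 11 stellate cell markers, 5 were higher and 6 lower (median -0.0063), and of 6 bile duct cell markers, 3 and 3 (median -0.02). Of 8 Kupffer cell and macrophage markers, 2 were higher and 6 lower (median -0.02), and the median of all genes was -0.01. The part of these cell types in the Gli1 difference was not tested.

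Gli3 acts mainly as the repressor of the pathway. Its levels were 7.44, 7.18, 7.11 and 7.10 in Het_HFD livers, against 7.39, 7.53, 7.24 and 7.31 in Het_control livers. The groups overlapped through 1 Het_HFD liver at 7.44, and the difference was -0.16 (SE 0.08, adjusted p = 0.158 by limma), and -0.11 without Het_control 2. Gli3 means were 7.25 ± 0.0411 in WT_HFD and 7.26 ± 0.0369 in WT_control livers (SD, n = 4 each).

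The wider pathway was read from 6 lists, of which 52 genes were measured here. In the diet contrast of heterozygotes 1 gene rose, 1 fell and the others did not pass. The share of all genes called in that contrast was 2.22%. Without Het_control 2, 1 gene of the lists passed, Gas1, and the share of all genes was 0.873%. Gas1, a co-receptor that helps Ptch1 bind ligand, read 9.54, 9.62, 9.71 and 9.79 in Het_HFD livers, against 9.41, 9.52, 8.99 and 9.15 in Het_control livers. All 4 Het_HFD values lay above the Het_control values, and Gas1 was higher by 0.40 (SE 0.10, adjusted p = 0.0479 by limma). The call was kept in 2 of the 16 fits that left out 1 array, those without Het_control 2 (0.48, adjusted p = 0.0218) and Het_control 4 (adjusted p = 0.0353), and the adjusted p reached 0.133. The fit without Het_control 4 called 3447 of all 19938 genes in this contrast. In wild type Gas1 differed by 0.13 (SE 0.10), and the interaction was 0.27 (SE 0.14, adjusted p = 0.618). The other co-receptors and surface proteins, Cdon, Boc, Gpc3 and Lrp2, were not called. Cdon, a cell-surface co-receptor, differed by -0.24 in heterozygotes (SE 0.11, adjusted p = 0.145) and 0.04 in wild type, and without Het_control 2 by -0.09 in heterozygotes. Cdon read 6.80 on Het_control 2 and 5.94 to 6.24 on the other 15 arrays, all under 7.72, the 95th percentile of olfactory receptor genes. Whether it reports transcripts or background was not tested.

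Mycn, a growth-promoting transcription factor known as a hedgehog target in cerebellum, read 7.78, 7.76, 7.85 and 7.74 in Het_HFD livers, against 8.18, 8.18, 8.09 and 8.25 in Het_control livers. The groups did not overlap, and Mycn was lower by 0.39 (-0.39, SE 0.09, adjusted p = 0.0372). It read 7.99, 8.14, 7.85 and 7.65 in WT_HFD livers, against 7.98, 8.05, 7.91 and 8.17 in WT_control livers, a difference of -0.12 (SE 0.09). The call in heterozygotes was kept in 6 of the 16 fits that left out 1 array, with an adjusted p of up to 0.103, and was lost without Het_control 2 (-0.39, adjusted p = 0.0559). Over both genotypes Mycn fell by 0.26 (-0.26, SE 0.06, adjusted p = 0.0452). That call was kept in 4 of the 16 fits. The Mycn window was 1 of 3 with the core motif among the list genes with a window (41 genes). It is shown as 30 bases at chr12:12941792-12941821 of GRCm38.p6, on the minus strand of the genome as Mycn itself, with the core, read on the opposite strand, in capitals 26 bases after the start.
Mycn: tctggacgcgcTGGGTGGatgcggggggct
The match describes the sequence and is no sign that a Gli factor binds there.

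Ccnd1, cyclin D1, fell over both genotypes by 0.34 (-0.34, SE 0.07, adjusted p = 0.0259 by limma). It read 12.10, 12.13, 11.86 and 12.16 in Het_HFD livers, against 12.22, 12.27, 12.61 and 12.44 in Het_control livers. It read 12.09, 12.16, 11.89 and 11.85 in WT_HFD livers, against 12.52, 12.22, 12.40 and 12.26 in WT_control livers. The diet groups did not overlap in either genotype, and neither contrast within a genotype passed on its own (-0.32, adjusted p = 0.0770, and -0.35, adjusted p = 0.447). The call over both genotypes was kept in 10 of the 16 fits that left out 1 array, with an adjusted p of up to 0.0635. Without Het_control 2 Sox9, a transcription factor of bile duct cells and a known hedgehog target, also passed over both genotypes (-0.22, SE 0.06, adjusted p = 0.0405), and is named here after its values were seen. Of the 11 measured genes known as targets in other tissues, 7 had lower values in Het_HFD than in Het_control livers (median -0.05, as for all genes, -0.05) and 11 did so in wild type (median -0.08, against -0.01).

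The other lists held no called gene in the diet contrasts with all 16 arrays. Of 11 primary cilium genes, 10 had higher values in Het_HFD than in Het_control livers (median 0.07, against -0.05 for all genes) and 9 in WT_HFD than in WT_control livers (median 0.10, against -0.01). Without Het_control 2 the count in heterozygotes was 9 (median 0.06, against -0.02). Ift122, a part of the transport complex that returns proteins along the cilium, was nearest, at 0.20 over both genotypes (SE 0.05, adjusted p = 0.0558), and without Het_control 2 it passed there (0.23, SE 0.04, adjusted p = 0.00948). Ift140, a member of the same complex, differed by 0.03 in heterozygotes and 0.13 in wild type. Of 16 genes that carry the signal between Smo and the Gli factors, 9 had higher values in Het_HFD than in Het_control livers, and 9 did so in wild type. Evc2, which relays the signal of Smo at the cilium base, differed by -0.20 in heterozygotes (SE 0.06, adjusted p = 0.0765) and -0.05 in wild type, and the kinase gene Csnk1e by 0.19 (SE 0.07, adjusted p = 0.0974) and -0.09. Without Het_control 2 the differences in heterozygotes were -0.16 for Evc2 and 0.12 for Csnk1e. Of 6 genes of ligand processing and release, 2 and 1 had higher values in heterozygotes and wild type, and the 3 zinc finger genes Glis1, Glis2 and Glis3 were lower in value in both. Scube3, of a family that helps release ligand, differed by -0.23 (SE 0.08, adjusted p = 0.0872) in heterozygotes and -0.09 in wild type, and Scube2 by -0.12 and -0.08. Without Het_control 2 the differences in heterozygotes were -0.15 for Scube3 and -0.06 for Scube2. Scube3 read 8.04 on Het_control 2 and 7.40 to 7.73 on the other 15 arrays, near or under the olfactory receptor 95th percentile of 7.72. Glis3 differed by -0.22 (SE 0.07, adjusted p = 0.0711) and -0.10, and Glis2 by -0.08 in each genotype. Without Het_control 2 Glis3 kept -0.22 in heterozygotes and Glis2 had -0.05.

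**Figure D4:**
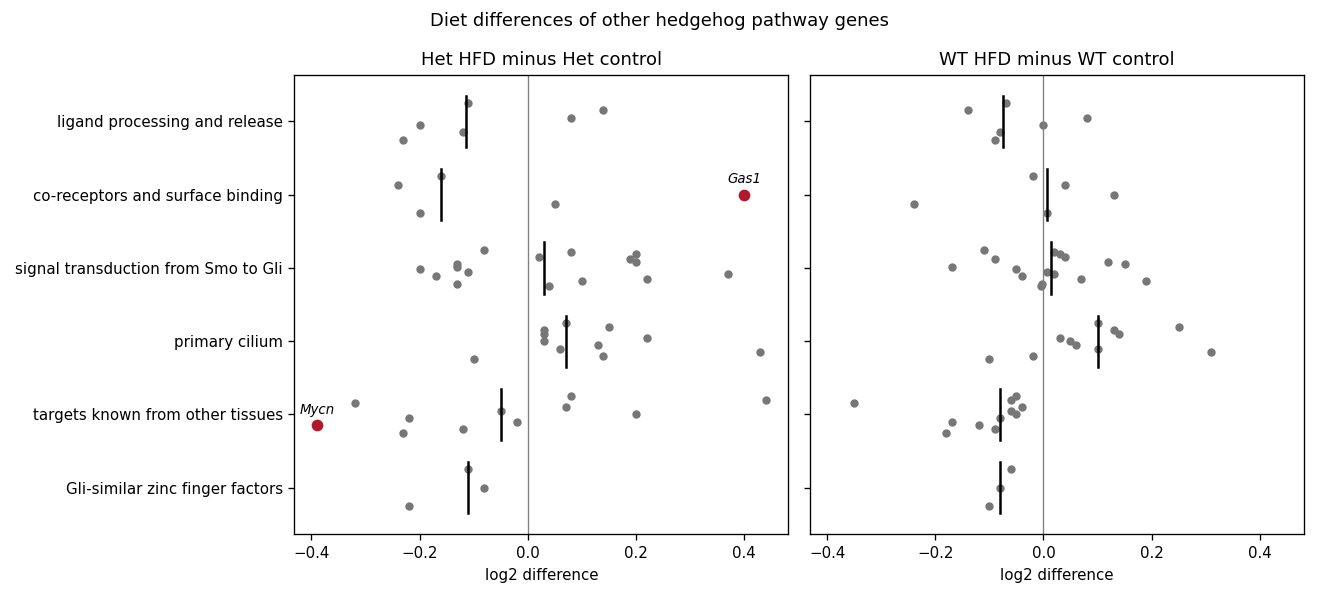
Diet differences (horizontal axes, log2) of the other hedgehog pathway genes by list, in heterozygotes (left) and wild type (right). Points are genes, black bars are list medians, and red points are genes called at an adjusted p under 0.05. The called genes were Gas1 (0.40) and Mycn (-0.39), both in heterozygotes.

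Markers of other cell types also differed in value in the heterozygous diet contrast. Gas1 and Mycn were called there, and Smo was not (adjusted p = 0.0599 by limma). All 8 Kupffer cell and macrophage markers had higher values in Het_HFD livers, with 4 called (Adgre1, Cd68, Vsig4 and Csf1r, by 0.52 to 0.92) and 2 called without Het_control 2 (Cd68 and Vsig4). Their mean level was 10.21 to 10.53 in Het_HFD livers and 9.66 to 10.09 in Het_control livers (9.81 to 10.09 without Het_control 2). In wild type it was 9.80 to 10.44 in WT_HFD livers and 10.05 to 10.19 in WT_control livers, with 0 called. Of 7 lymphocyte markers, 6 had higher values in Het_HFD livers (median 0.19), and 7 without Het_control 2 (median 0.21), with 0 called. Their mean level was 7.63 to 7.91 in Het_HFD livers and 7.49 to 7.65 in Het_control livers, or 7.49 to 7.53 without Het_control 2. Of 8 sinusoidal endothelial markers, 6 had higher values (median 0.16, 0 called), and 4 without Het_control 2 (median 0.07). Of 11 stellate cell markers, 7 had higher values (median 0.07), and Lrat was called higher (adjusted p = 0.0465 by limma). Of 6 bile duct cell markers, 5 had lower values and 1 a higher one (median -0.17, and -0.09 without Het_control 2). That one, Krt23, was called higher (adjusted p = 0.0356 by limma). Without Het_control 2 neither Lrat nor Krt23 was called (adjusted p = 0.0886 and 0.0518 by limma). Of 9 gallbladder, gut and pancreas markers, 9 had lower values in Het_HFD livers (median -0.13, and -0.04 without Het_control 2), with 0 called. The medians of all genes were -0.05 and -0.02. The mean level of these 9 markers was 7.90 on Het_control 2, against 7.43 to 7.58 on the other 15 arrays. Bile duct cell markers averaged 7.45 to 7.75 over the 16 arrays, and lymphocyte markers 7.37 to 7.91. Both lie near 7.72, the 95th percentile of olfactory receptor genes. Single markers had means from 5.59 (Cftr) to 9.1 (Pkhd1) in the first list and from 6.45 (Ms4a1) to 9.04 (Ptprc) in the second. Whether the dim ones report transcripts or background was not tested. The part of these cell types in the differences was not tested either.

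Pairs of members were also compared. Over the 15 arrays without Het_control 2, none of the 45 pairs passed after Benjamini-Hochberg adjustment, by permutation tests of Pearson's r and Spearman's rho. The closest pair was Ihh and Gli1, with r = 0.619 (permutation p = 0.0109, adjusted 0.491) and rho = 0.711 (permutation p = 0.00376, adjusted 0.169), and r = 0.654 without the 2 arrays farthest from the median of Ihh. Within groups, with group means removed, r was 0.356 for this pair. It was larger in size for others, such as Shh and Gli1 (0.687), Ptch1 and Gli3 (0.559), Smo and Gli1 (-0.536) and Sufu and Gli2 (0.528). The permutations moved values across groups, and the values within groups were not tested. With all 16 arrays 24 of the 45 pairs had an r above 0.6 in size, against 1 without Het_control 2.

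By Pearson's r over the same 15 arrays, the genes most like each member were also sought, as a description with no test, since the arrays share their groups. Smo was most like Gpd2 (0.918), the mitochondrial glycerol-3-phosphate dehydrogenase, then Arsg (0.893) and Uba1y (0.883). Ptch1 was most like Zfp951 (0.935), Npc1 (0.882), a cholesterol transporter of lysosomes, and Fbxl12 (0.866). Hhip was most like Aqp1 (0.884), a water channel, then Fam174b and Pgm5, and Sufu was most like Mir1a-1 (0.874), Pitpna and Tdrd3. Gli1 was most like Fam151a (0.880), Scgn and 2310057J18Rik. Gli2 was most like Ccer1 (0.877), Adam18 and Sec14l5, and Gli3 most like B3gnt4 (0.842), Drd2 and Slc7a6os. Among the ligands, Shh was most like Aebp1 (0.888), Rom1 and Asb11, Ihh most like Hapln2 (0.913), Olfr1450 and Bmpr1b, and Dhh most like Rtl1 (0.848), Chst14 and Nelfe. With Het_control 2 included, r was 0.918 for Smo and Gpd2 but 0.711 for Ptch1 and Zfp951. It fell further for other pairs, to 0.418 for Sufu and Mir1a-1, 0.44 for Hhip and Fam174b, and 0.501 for Dhh and Chst14. Some pairs rose, such as Ihh and Hapln2 to 0.964.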

How the data were processed

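The authors deposited log2 expression values, 1 per probe set, which the submitters' processing notes credit to Expression Console by Affymetrix, using RMA. The sources used here give neither versions nor a genome build. Of 35556 probe sets, 21789 had 1 gene symbol, 1621 several and 12146 none. Those with 1 symbol were used. Symbols were updated through Entrez numbers with RefSeq (GRCm38.p6), which matched 19855 of 19938 genes, and the probe set with the highest mean stood for each gene. All 16 arrays entered 1 limma 3.58.1 fit (R 4.3.3, statmod 1.5.0, lmFit and eBayes) with a mean per group, and p-values were adjusted by Benjamini-Hochberg over all genes. The fit was tested on simulated data. The number of arrays limits the precision. The series text speaks of separate animals. Replicate numbers follow record order and pair none.

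The 10 members, the pathway and marker lists and the named genes were chosen with earlier results of these data known. Named genes are the members, the called genes of the wider lists, the 2 genes of each wider list with the smallest p among the 4 groups, and the 3 genes most like each member. Alternatives were the mean of a gene's probe sets, all probe sets, a filter at the olfactory receptor median, trend and robust moderation, repeated quantile normalization, array weights, fits of the contrast's arrays alone, the number in the sample titles as a random block, and leaving out each array.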

Additional observations from a re-analysis of the deposited data

Results flagged for a closer look

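Of 40 sets of 4 arrays (10 members in 4 groups), 2 held an array far from the other 3 by Dixon's test (95% level), and chance gives about 1 in 20. Smo was 8.93 in WT_control 3, against 9.13 to 9.14 in the other 3 WT_control livers. Gli2 was 8.14 in Het_control 2, against 7.5 to 7.59 in the other 3 Het_control livers, on the array that stood apart across genes.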

How the results depend on the processing

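No paired analysis was possible because the replicate numbers follow the order of the records. The number of called members was 0 in all comparisons with 16 arrays, and stayed 0 in all alternatives for diet in wild type, the genotype contrasts and the interaction. For diet in heterozygotes it was 0 to 1 over the fits that left out 1 array, 1 with repeated quantile normalization, 1 with array weights (both Smo) and 3 with a random block for the number in the sample titles (Gli3, Ihh and Smo). For diet over both genotypes it was 0 to 1 with 1 array left out, 1 with quantile normalization, 1 with weights and 3 with the block (Gli1, Ihh and Smo). For any difference it was 1 with weights and 3 with the block (Hhip, Ihh and Smo). Of all 19938 genes, the block called 6938 for diet in heterozygotes, 3703 for diet over both genotypes and 4441 for any difference. Weights called 1067, 2106 and 833 genes in the same order. Quantile normalization called 406 for diet in heterozygotes and 320 for diet over both genotypes. Beside the block's counts, 3 calls among 10 genes is no result about the pathway. The block's estimated correlation was -0.3724, below 0, and the weight of Het_control 2 was 0.06981, against 0.557 to 2.269 for the others. The calls of Gas1 and Mycn in heterozygotes were lost with quantile normalization (0.33 and -0.33, adjusted p = 0.122 and 0.0620), with all probe sets tested (adjusted p = 0.0699 and 0.0605) and with the contrast's arrays alone (0.230 and 0.107). Over both genotypes, testing all probe sets lost Ccnd1 (adjusted p = 0.0574) and Mycn (0.0795), and quantile normalization lost Mycn (0.0891).

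Of 960 member differences recomputed, 927 kept direction and side of the threshold, 6 newly passed and 27 changed sign. The last were small. With 1 array left out, diet in heterozygotes ranged from -0.01 to 0.09 for Shh and from -0.01 to 0.13 for Ptch1, diet in wild type from -0.03 to 0.03 for Sufu and from -0.02 to 0.02 for Gli3, and genotype on the high-fat diet from -0.02 to 0.05 for Gli2. Genotype on the control diet ranged from -0.04 to 0.05 for Shh, from -0.0076 to 0.14 for Dhh, from -0.03 to 0.07 for Gli1 and from -0.01 to 0.20 for Gli2. Quantile normalization gave -0.0049 for Ptch1 (diet in heterozygotes), 0.02 for Gli3 (diet in wild type) and -0.03 for Shh (genotype on the control diet). Weights gave -0.02 for Ptch1 (diet in heterozygotes), 0.01 for Sufu (diet in wild type), and for genotype on the control diet -0.05 for Shh, -0.0044 for Dhh, -0.03 for Gli1 and -0.01 for Gli2. The block gave 0.00039 for Sufu (diet in wild type) and -0.0019 for Gli2 (genotype on the high-fat diet). The cause was not tested. If mice that share a title number share a litter or cage, they are not independent. Of 11 numbers, 5 were held by more than 1 array and 0 by both genotypes.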
